A study of Mus musculus with 6 samples.

Results

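Keratins and the genes of the cornified envelope were read in the cochlea of *Cmah*-null and WT mice. The genes were taken by symbol from the array annotation, as the keratins with a numbered symbol, the small proline-rich genes (Sprr) and *Lor*, *Ivl*, *Krtdap*, *Flg*, *Dsg1a*, *Dsc1*, *Tgm1* and *Tgm3*. *Flg* matched no probe by symbol. This gave 67 of the 18138 symbols on the Illumina MouseRef-8 v2 array, measured by 75 of its 25697 probes, and 46 of the 67 were keratins. Each symbol was represented by the probe with the highest mean signal. *Cmah* encodes the enzyme that makes the sialic acid Neu5Gc from Neu5Ac. The study compared 3 WT samples with 3 samples of mice lacking *Cmah* function throughout the body, all 12 months old and of strain C57BL/6 by the labels (C57BL/6J by the methods of the study), with 1 array of total cochlear RNA per sample. The sex of the mice and the way in which the cochlea was freed from surrounding tissue were not given in the sources used here. The columns of the second group are named "old" in the deposited tables and were matched to the *Cmah*-null samples by elimination and by their numbers. The probe for *Cmah* had log2 signals of 7.27, 7.28 and 7.87 in WT and of 7.95, 7.98 and 7.27 in the libraries labelled *Cmah*-null, and was detected on WT 3 and on *Cmah*-null 1 and 2. It was thus not lower in *Cmah*-null mice, and since its place relative to the disrupted part of the gene was not given in the sources used here, it does not check the labels.

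Keratins are the intermediate filament proteins of epithelial cells, and a type I keratin always pairs with a type II keratin. The pairs mark the kind and the state of an epithelium, with *Krt8* and *Krt18* in simple epithelia, *Krt5* and *Krt14* in the basal layer of stratified epithelia, *Krt1* and *Krt10* in the layers above it, and dedicated sets in the hair follicle. In the outermost layers of skin, transglutaminases cross-link loricrin, involucrin and small proline-rich proteins into the cornified envelope, the protein shell that gives the surface its barrier. The sensory and supporting epithelia of the cochlea are of the simple kind, while the skin of the ear canal and the outer face of the eardrum are cornified.

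The genes lie in clusters. The annotation of the array placed 25 of the keratins on chromosome 11, which holds the type I cluster, and 20 on chromosome 15, which holds the type II cluster. It placed 16 of the other genes, the Sprr genes with *Lor* and *Ivl*, in band 3qF1 of chromosome 3. The genome build of these probe positions is not stated in the files. The probe listed under the old symbol *Krt2-1* carries a RefSeq accession that belongs to *Krt1*, and it is called *Krt1* here.

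The values are the authors' log2 signals after quantile normalization. A probe counted as detected where its detection p was under 0.05, and the lowest signals that were detected on an array lay between 7.44 and 7.57. Between 13873 and 15223 probes were detected on an array. Of the 67 genes, 22 were detected on all 6 arrays, 22 on no array and 23 on 1 to 5 arrays. The 22 undetected genes included 8 of the 12 hair shaft keratins and 5 of the 14 small proline-rich genes.

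The arrays themselves showed a near-likeness and a split by bead number. *Cmah*-null arrays 1 and 2 were nearly alike, with a standard deviation of the log2 difference over detected probes of 0.138 against 0.391 to 0.851 for the other pairs of arrays. Over the 67 genes their largest difference was 0.28 and the median was 0.07. The bead number also split the arrays, with a median of 32 to 34 beads per probe on WT 1 and *Cmah*-null 1 and 2 and of 38 or 39 on WT 2, WT 3 and *Cmah*-null 3. Nothing in the labels says whether the samples were processed in batches. The methods of the study give 3 mice per group, and the labels do not tie each array to a mouse of its own, so the p-values measure the spread between these samples.

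No keratin or envelope gene differed between the genotypes at an adjusted p under 0.05 in limma, and neither did any other symbol on the array (0%). The smallest adjusted p among the 67 genes was 0.365. At an unadjusted p under 0.05 in limma, 9 of the 67 genes and 1646 of all 18138 symbols passed. The 9 included *Krt33a* and *Sprr2i*, which were detected on no array. The study looked at genes with a difference of at least 1.5-fold and a p under 0.05, without saying in its methods whether that p was adjusted. With the unadjusted p of limma in this rule, 4 of the 67 genes (5.97%) were higher in *Cmah*-null mice, where 1.61% of all symbols were, and 0 were lower, where 1.46% of all symbols were. The 4 genes were *Krt71*, *Krt73*, *Sprr1a* and *Sprr1b*. The *Cmah*-null arrays were all higher than the WT arrays in 10 of the 67 genes (14.9%), beside 10% of all symbols, and all lower in 1 gene, *Tgm3*, beside 6.67% of all symbols. The 10 included *Krt33a*, *Krt36* and *Sprr2i*. These and *Tgm3* were detected on no array, so their order is one of background signals. An exact permutation test of 3 against 3 arrays cannot give a two-sided p below 0.1. The log2 difference, *Cmah*-null minus WT, was above 0 in 49 of the 67 genes (73.1%), with a median of 0.12. Over all symbols it was above 0 in 53.1%, with a median of 0.01.

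**Figure D1:**
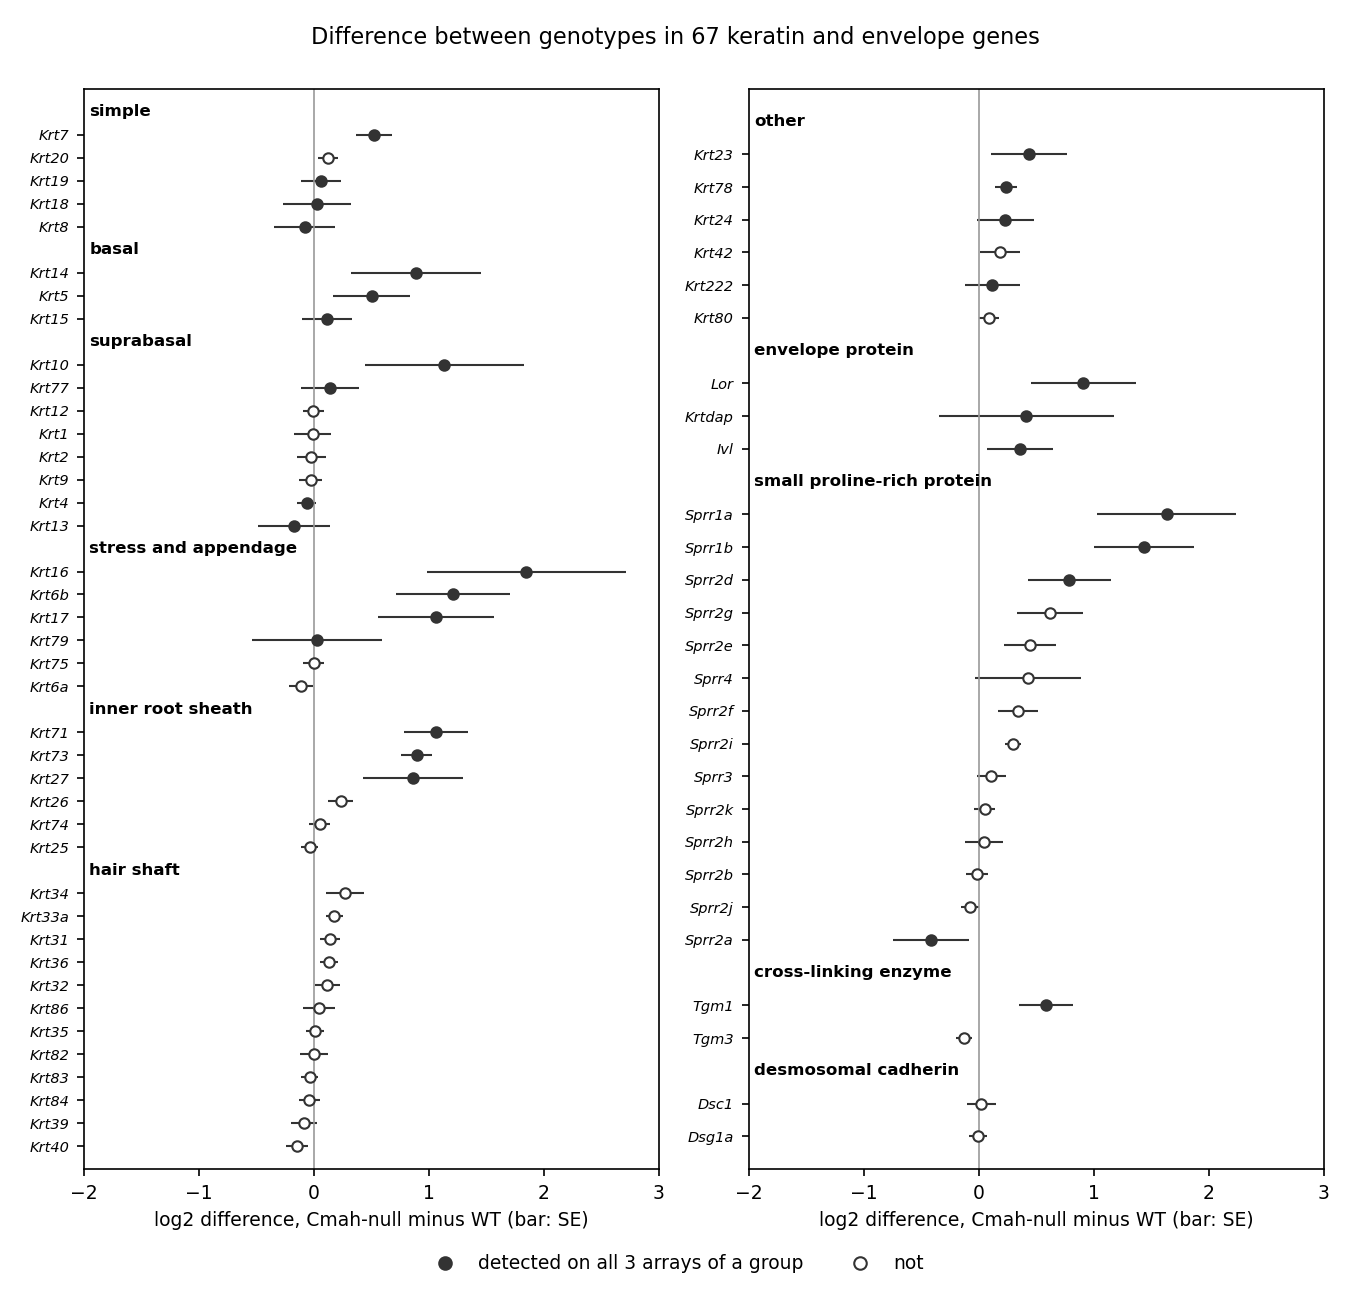
Log2 difference between *Cmah*-null and WT arrays (horizontal axis, *Cmah*-null minus WT, with its standard error from limma) for the 67 genes, grouped by class and ordered by size within a class. Filled points are genes detected on all 3 arrays of at least 1 group and open points are the others. The largest values are those of *Krt16* (1.85), *Sprr1a* (1.64) and *Sprr1b* (1.44), while hair shaft keratins lie between -0.15 and 0.27.

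Among the simple epithelial keratins the genotypes hardly differed. The 5 genes had a median log2 difference of 0.06. *Krt8*, the type II keratin of simple epithelia, had log2 signals of 10.70, 11.37 and 11.19 for WT and 11.19, 11.30 and 10.54 for *Cmah*-null mice. Its partner *Krt18* stood at 10.10, 10.41 and 10.49 in WT and at 10.68, 10.69 and 9.71 in *Cmah*-null mice. In both genes *Cmah*-null 3 had the lowest value and the groups overlapped. Their log2 differences were -0.08 (standard error 0.26) and 0.03 (standard error 0.29). *Krt19*, the smallest keratin and one of ductal epithelia, was near the detection limit, at 7.82, 7.76 and 8.04 in WT and 8.09, 8.14 and 7.58 in *Cmah*-null mice, with a log2 difference of 0.06 (standard error 0.17). The sign of the difference in these 3 genes changed when single arrays were left out, and that of *Krt8* also with median scaling. *Krt7*, also of ductal and glandular epithelia, was the exception. It had log2 signals of 8.87, 8.93 and 9.16 in WT and 9.64, 9.69 and 9.21 in *Cmah*-null mice. Every *Cmah*-null array was above every WT array, the gap between *Cmah*-null 3 and WT 3 being the narrowest. The log2 difference was 0.53 (standard error 0.16, adjusted p 0.505 in limma), short of 1.5-fold. *Krt20* was detected on no array.

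The 3 basal keratins were detected on all 6 arrays and had a median log2 difference of 0.50. *Krt14*, the type I keratin of the basal layer, stood at 13.54, 13.94 and 15.56 for WT and at 15.60, 15.42 and 14.69 for *Cmah*-null mice. *Krt5*, its type II partner, had log2 signals of 8.54, 8.37 and 9.47 in WT and of 9.37, 9.62 and 8.91 in *Cmah*-null mice. In both partners WT 3 was far above the other WT arrays, at the level of *Cmah*-null 1 and 2, and *Cmah*-null 3 lay between. The log2 difference was 0.89 (standard error 0.57, adjusted p 0.702 in limma) for *Krt14* and 0.50 (standard error 0.34, adjusted p 0.716) for *Krt5*. *Krt14* ran from 0.48 without WT 1 to 1.495 without WT 3, and *Krt5* from 0.29 without WT 2 to 0.84 without WT 3. *Krt15*, a type I keratin of resting basal cells and of the hair follicle bulge, was at 10.50, 10.51 and 11.24 in WT and at 10.85, 10.94 and 10.81 in *Cmah*-null mice. The *Cmah*-null values lay inside the WT range, and the log2 difference was 0.12 (standard error 0.21).

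Suprabasal keratins showed no common direction. Of 8 genes, 2 had a log2 difference above 0, and the median was -0.01. The difference stood out in *Krt10*, the type I keratin that replaces *Krt14* as cells leave the basal layer. Its log2 signals were 11.73, 12.86 and 14.29 in WT and 13.67, 13.77 and 14.85 in *Cmah*-null mice. The WT arrays spanned 2.56, the widest WT range of all 67 genes, and WT 3 was above *Cmah*-null 1 and 2. The log2 difference of *Krt10* was 1.14 (standard error 0.69, adjusted p 0.693 in limma). It was 0.52 without WT 1 and 1.80 without WT 3. The probe for *Krt1*, the type II partner of *Krt10*, was detected on 1 WT and 1 *Cmah*-null array, with values of 7.35, 7.26 and 7.76 against 7.37, 7.63 and 7.36. It was therefore too dim on these arrays to say whether the partner followed. By its PCR array of cochlear tissue, the study reports *Krt1* as lower in *Cmah*-null mice. The dim probe read here cannot test that direction. *Krt77*, a type II keratin of the skin, was detected on all arrays and ranged from 7.54 to 8.50 in WT and from 7.97 to 8.17 in *Cmah*-null mice. *Krt4* and *Krt13*, the partner keratins of mucosal stratified epithelium, had log2 differences of -0.06 (standard error 0.08) and -0.17 (standard error 0.31). The corneal keratin *Krt12* and the palm and sole keratin *Krt9* were detected on no array, and *Krt2*, of the upper spinous layers, on 2 WT arrays.

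*Krt6*, *Krt16* and *Krt17* genes are active in the hair follicle and nail, and in skin they are switched on after wounding and in hyperproliferation. *Krt16* had the largest log2 difference of all 67 genes. Its log2 signals were 7.54, 8.93 and 9.99 for WT and 11.49, 11.36 and 9.15 for *Cmah*-null mice. *Cmah*-null 1 and 2 were more than 1 above each WT array, while *Cmah*-null 3 lay among the WT arrays. The log2 difference of *Krt16* was 1.85 (standard error 0.86, adjusted p 0.625 in limma). *Krt6b*, a type II keratin that pairs with *Krt16*, showed the same order of *Cmah*-null arrays, with 7.81, 7.81 and 8.54 in WT against 9.85, 9.76 and 8.19. Its log2 difference was 1.21 (standard error 0.49, adjusted p 0.584). *Krt17* had log2 signals of 12.93, 13.55 and 14.98 in WT and of 14.85, 14.86 and 14.94 in *Cmah*-null mice. Here the 3 *Cmah*-null arrays were nearly equal and WT 3 was at their level. The log2 difference was 1.06 (standard error 0.51, adjusted p 0.627 in limma). *Krt79*, a keratin of the hair follicle opening, stood at 9.11, 9.45 and 11.28 in WT and at 9.93, 10.02 and 9.97 in *Cmah*-null mice, a log2 difference of 0.03 (standard error 0.56). *Krt6a* was detected on 1 WT array, and *Krt75*, of the companion layer of the follicle, on none.

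*Krt6b* was measured by 2 probes of 50 bases, which start at bases 1646 and 1664 of its transcript and share 32 bases. They are shown because they read the same transcript through overlapping stretches. The shared bases are in capitals.

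First *Krt6b* probe: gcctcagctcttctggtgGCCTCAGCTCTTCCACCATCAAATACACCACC

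Second *Krt6b* probe: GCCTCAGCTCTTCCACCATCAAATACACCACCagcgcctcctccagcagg

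The second probe was detected on 0 WT arrays and on 2 *Cmah*-null arrays, with log2 signals of 7.29, 7.26 and 7.47 in WT and of 8.35, 8.34 and 7.22 in *Cmah*-null mice. Both probes thus had *Cmah*-null 1 and 2 above the WT arrays and *Cmah*-null 3 within or below the WT range. The measured log2 difference of the second probe was 0.63 (standard error 0.32, adjusted p 0.645 in limma). No least fold is given for it, since *Cmah*-null 3 did not detect it either.

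Hair keratins separated into those of the inner root sheath, the layer that moulds the growing hair, and those of the hair shaft. Of the 6 inner root sheath keratins, 2 met the rule of fold and p on the higher side (33.3%, beside 1.61% of all symbols). Another 2 of the 6 were detected on no array. Of the 12 hair shaft keratins 0 met the rule, but 8 of them were detected on no array. The contrast of sheath and shaft thus depends in part on which genes could be measured. *Krt71*, a type II keratin of the inner root sheath, had log2 signals of 7.14, 7.05 and 7.88 for WT and of 8.21, 8.25 and 8.81 for *Cmah*-null mice. All *Cmah*-null arrays but a single WT array detected it, and the groups did not overlap. The log2 difference was 1.06 (standard error 0.28, adjusted p 0.453 in limma). *Krt73*, a second type II keratin of the sheath, stood at 7.05, 7.11 and 7.10 in WT, where it was detected on no array, and at 7.90, 7.78 and 8.25 in *Cmah*-null mice, where it was detected on all 3. Its *Cmah*-null mean was at least 1.42-fold higher, against the lowest signals detected on the WT arrays. The measured log2 difference was 0.89 (standard error 0.13, adjusted p 0.365 in limma), and this was the smallest adjusted p of the 67 genes. *Krt27*, a type I keratin of the sheath, had log2 signals of 7.61, 7.48 and 8.30 in WT and of 8.27, 8.15 and 9.56 in *Cmah*-null mice. Its groups overlapped through WT 3, and its log2 difference was 0.86 (standard error 0.43, adjusted p 0.642 in limma). In *Krt27*, *Krt71* and *Krt73* alike the highest of all 6 arrays was *Cmah*-null 3, the reverse of the order seen for *Krt16* and *Krt6b*. *Krt26* was detected on 2 *Cmah*-null arrays and no WT array, with 7.38 as its middle WT value and 7.57 as its middle *Cmah*-null value. These values are near the detection limit, and the measured log2 difference was 0.235 (standard error 0.109, adjusted p 0.625 in limma). *Krt25* and *Krt74* were detected on no array.

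Hair shaft keratins were not measurable in most cases. Of the 12 genes, none was detected on all 3 arrays of a group, 8 were detected on no array, and the median log2 difference was 0.03. The other 4 were *Krt32*, *Krt34*, *Krt82* and *Krt86*. *Krt32* was detected on 1 WT and 2 *Cmah*-null arrays and reached 7.69 on *Cmah*-null 3. *Krt34* and *Krt86* were each detected on *Cmah*-null 3 alone, at 7.74 and 7.72. *Krt82* was detected on 1 array of each group.

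Of the 6 other keratins, *Krt23*, *Krt222*, *Krt24* and *Krt78* were detected on all 3 arrays of at least 1 group, and the 6 had a median log2 difference of 0.21. *Krt23*, a type I keratin, was at 11.36, 11.80 and 12.68 in WT and at 12.45, 12.41 and 12.30 in *Cmah*-null mice. WT 3 was the highest array, and the log2 difference was 0.44 (standard error 0.33, adjusted p 0.743 in limma), with 0.14 without WT 1 and 0.80 without WT 3. *Krt78* had the *Cmah*-null arrays, at 7.70 to 7.86, above the WT arrays, at 7.44 to 7.69, with a log2 difference of 0.24 (standard error 0.095, adjusted p 0.582 in limma).

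**Figure D2:**
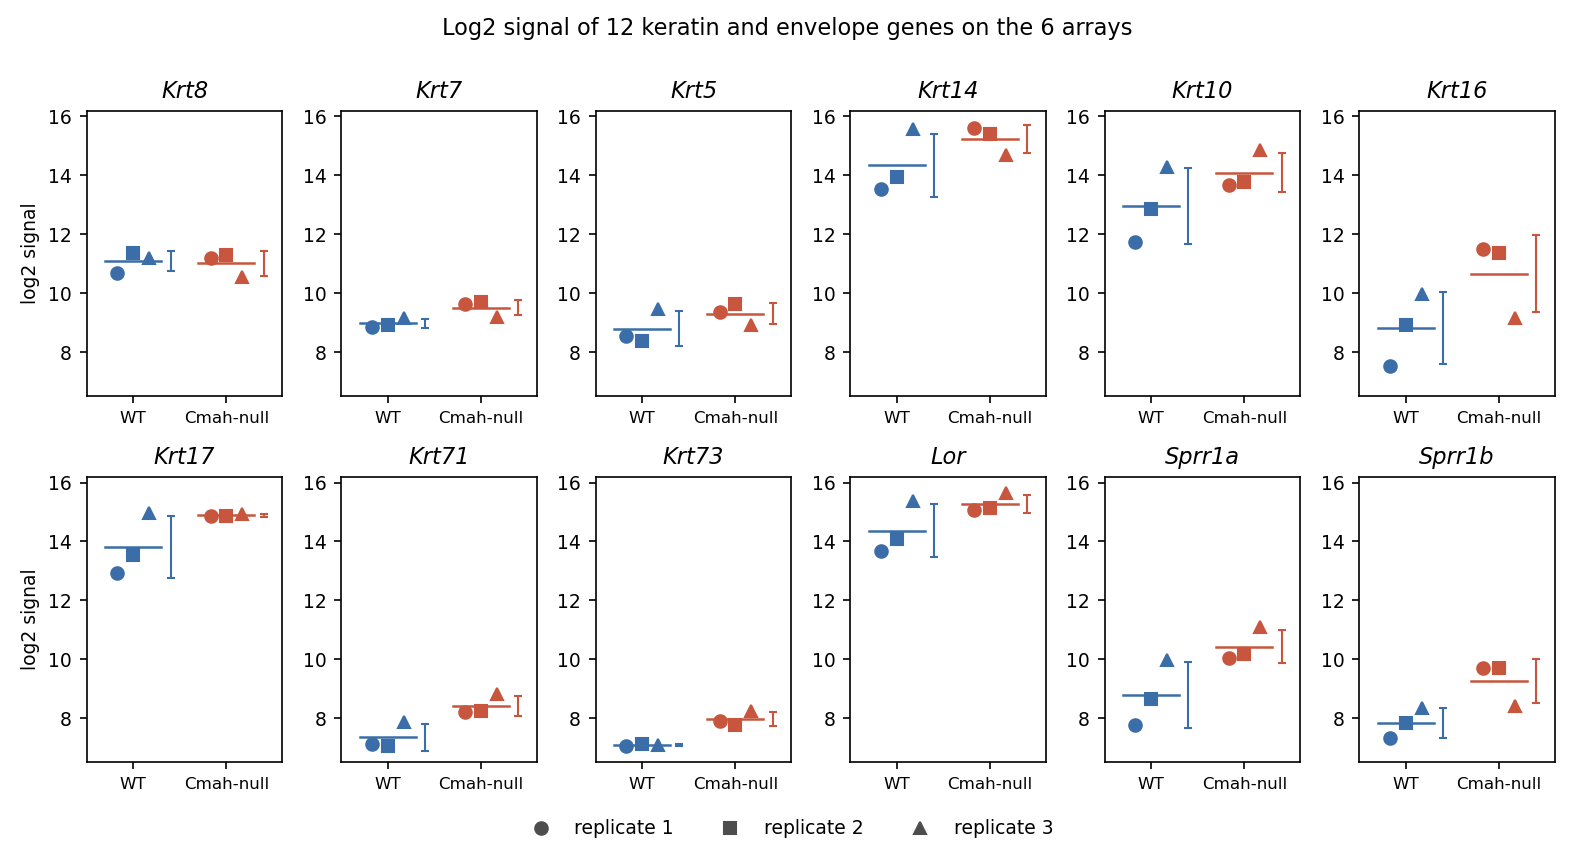
Log2 signal (vertical axis, quantile normalized) of 12 genes on the 3 WT arrays (blue) and 3 *Cmah*-null arrays (red), with marker shape for the replicate number, a line at the group mean and a bar of 1 standard deviation beside it. In *Krt14*, *Krt10*, *Krt17* and *Lor* WT 3 (triangle) lies at or near the level of the *Cmah*-null arrays, in *Krt16* and *Sprr1b* *Cmah*-null 3 lies well below *Cmah*-null 1 and 2, and in *Krt71* and *Krt73* it lies above them.

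Proteins of the cornified envelope come next. *Lor* encodes loricrin, the main protein of the envelope. It had log2 signals of 13.67, 14.07 and 15.37 for WT and of 15.07, 15.14 and 15.63 for *Cmah*-null mice. WT 3 was again above *Cmah*-null 1 and 2, and the log2 difference was 0.91 (standard error 0.45, adjusted p 0.642 in limma). *Ivl* encodes involucrin, an early scaffold of the envelope, and had log2 signals of 7.56, 7.78 and 8.62 in WT and of 8.38, 8.48 and 8.19 in *Cmah*-null mice. All *Cmah*-null values lay between WT 2 and WT 3, and the log2 difference was 0.36 (standard error 0.29). *Krtdap*, a secreted protein of differentiating keratinocytes, stood at 11.28, 12.19 and 13.66 in WT and at 13.35, 13.43 and 11.60 in *Cmah*-null mice. Its *Cmah*-null 3 value was near the lowest WT value, and the log2 difference of 0.41 (standard error 0.76) changed sign, to -0.13, without WT 1.

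Small proline-rich proteins bridge the other envelope proteins. The 14 genes had a median log2 difference of 0.32, and 11 of them were above 0. *Sprr1a* had log2 signals of 7.77, 8.64 and 9.99 in WT and of 10.03, 10.19 and 11.08 in *Cmah*-null mice. The groups did not overlap, but WT 3 and *Cmah*-null 1 were only 0.04 apart, and the WT arrays spanned 2.22. The log2 difference was 1.64 (standard error 0.60, adjusted p 0.569 in limma), which is 3.11-fold. *Sprr1b* stood at 7.32, 7.83 and 8.34 in WT, where it was detected on 2 arrays, and at 9.71, 9.70 and 8.41 in *Cmah*-null mice. Its *Cmah*-null 3 value was barely above WT 3, unlike in *Sprr1a*, where *Cmah*-null 3 was the highest array. The log2 difference of *Sprr1b* was 1.44 (standard error 0.44, adjusted p 0.510 in limma). With *Cmah*-null 1 and 2 averaged into 1 sample, *Krt71* and *Krt73* still met the rule of fold and p and *Sprr1a* and *Sprr1b* did not, though their log2 differences were 1.80 and 1.22 in that fit, which has fewer samples.

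The Sprr2 genes split. *Sprr2d* had log2 signals of 7.17, 8.29 and 7.72 in WT and of 8.84, 8.75 and 7.96 in *Cmah*-null mice, with a log2 difference of 0.79 (standard error 0.36, adjusted p 0.622 in limma). *Sprr2a* stood at 7.98, 8.93 and 9.18 in WT and at 8.51, 8.32 and 8.02 in *Cmah*-null mice, and its log2 difference of -0.41 (standard error 0.33, adjusted p 0.753) was the lowest of the 67 genes. A second probe for *Sprr2a*, dimmer, had a log2 difference of 0.09 (standard error 0.09). *Sprr2e*, *Sprr2f* and *Sprr2g* were detected on 0, 1 and 1 WT arrays and on *Cmah*-null 1 and 2, where they lay between 7.75 and 8.24. *Sprr4* was detected on WT 3 and on *Cmah*-null 1 and 2, at 8.50, 8.62 and 8.33. *Sprr2b*, *Sprr2i*, *Sprr2j*, *Sprr2k* and *Sprr3* were detected on no array.

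The enzymes and junction proteins were mostly dim. *Tgm1*, the membrane-bound transglutaminase that cross-links the envelope, had log2 signals of 7.56, 7.77 and 8.33 in WT and of 8.42, 8.24 and 8.75 in *Cmah*-null mice. Only *Cmah*-null 2 overlapped the WT range, through WT 3, and the log2 difference was 0.58 (standard error 0.24, adjusted p 0.582 in limma). This is 1.498-fold, just under the fold of the rule. *Tgm3*, a second transglutaminase of epidermis and hair follicle, was detected on no array, at 7.10 to 7.20 in WT and 6.98 to 7.09 in *Cmah*-null mice. *Dsg1a*, a desmosomal cadherin of the upper epidermis, was also detected on no array, at 7.11, 7.20 and 7.05 in WT and 7.13, 7.17 and 7.05 in *Cmah*-null mice. *Dsc1*, its partner among the desmosomal cadherins, was detected on WT 3 alone, with 7.17, 7.37 and 7.59 in WT and 7.38, 7.32 and 7.50 in *Cmah*-null mice.

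Promoters are shown for the genes that met the rule, for the partners in the inner root sheath and for the envelope proteins, so that their letters can be read side by side. A promoter of 300 bases, from 250 before to 50 after the start of the gene, was found in the RefSeq table (build GRCm38.p6) for 47 of the 67 genes. Below are the 150 bases before the start, 5′ to 3′ on the strand of the gene, with the letters TATAAA and TGANTCA, a form of the AP-1 site, in capitals where a search of both strands found them.

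*Sprr1a*, chr3:92485882-92486031, minus strand: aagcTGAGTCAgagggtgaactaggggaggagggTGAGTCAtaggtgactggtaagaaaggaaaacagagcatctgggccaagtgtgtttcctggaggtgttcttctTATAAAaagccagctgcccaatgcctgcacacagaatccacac

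*Sprr1b*, chr3:92438780-92438929, minus strand: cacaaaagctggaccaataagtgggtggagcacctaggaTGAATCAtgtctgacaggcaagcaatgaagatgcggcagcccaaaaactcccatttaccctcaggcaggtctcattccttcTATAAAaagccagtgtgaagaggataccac

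*Lor*, chr3:92083143-92083292, minus strand: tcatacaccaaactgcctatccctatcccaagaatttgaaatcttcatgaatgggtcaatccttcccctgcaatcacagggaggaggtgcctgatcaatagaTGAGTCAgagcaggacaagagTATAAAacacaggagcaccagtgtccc

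*Ivl*, chr3:92573736-92573885, minus strand: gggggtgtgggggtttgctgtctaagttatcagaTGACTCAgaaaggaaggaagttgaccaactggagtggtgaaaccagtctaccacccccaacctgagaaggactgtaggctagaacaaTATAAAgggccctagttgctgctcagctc

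*Krtdap*, chr7:30787755-30787904, plus strand: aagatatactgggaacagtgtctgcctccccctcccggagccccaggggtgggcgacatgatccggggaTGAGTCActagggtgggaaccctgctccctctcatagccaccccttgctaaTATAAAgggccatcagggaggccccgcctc

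*Krt71*, chr15:101743098-101743247, minus strand: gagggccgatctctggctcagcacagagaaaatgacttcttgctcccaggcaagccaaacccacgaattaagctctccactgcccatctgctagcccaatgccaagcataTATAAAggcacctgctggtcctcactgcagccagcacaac

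*Krt73*, chr15:101802361-101802510, minus strand: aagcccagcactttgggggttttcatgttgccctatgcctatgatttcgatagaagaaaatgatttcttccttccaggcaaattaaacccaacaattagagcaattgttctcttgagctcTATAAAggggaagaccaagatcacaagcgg

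*Krt27*, chr11:99351119-99351268, minus strand: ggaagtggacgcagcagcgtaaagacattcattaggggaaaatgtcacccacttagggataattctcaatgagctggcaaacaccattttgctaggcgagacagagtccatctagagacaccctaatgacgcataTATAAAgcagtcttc

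All 8 promoters hold the TATA letters, at 15 to 43 bases before the start. Over whole windows of 300 bases, they were found in 14 of the 16 envelope, junction and enzyme genes with a promoter and in 15 of the 31 keratins, beside 13.6% of all 32851 promoters in the table. The AP-1 letters, which read the same on both strands, were found in 12 of those 16 genes and in 1 of the 31 keratins, *Krt13*, beside 7.81% of all promoters. They were present in 9 of the 11 Sprr genes with a promoter, which include *Sprr2b*, *Sprr2i* and *Sprr2k*, detected on no array, as well as *Sprr1a* and *Sprr1b*. The letters AGATAA, as bound by GATA factors, were found in 9 of the 31 keratins and in 0 of the 16 other genes, beside 11.2% of all promoters, and 4 of the 5 inner root sheath keratins with a promoter held it. The TATA and AP-1 letters did not overlap in the stretches printed. The AGATAA letters of *Krt27*, *Krt71* and *Krt73* begin 183, 225 and 182 bases before the start, outside the 150 bases printed. A match describes the sequence and does not show that a factor binds there.

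The spread among WT arrays followed the same order in many of these genes. WT 1 was the lowest and WT 3 the highest WT array in 28 of the 67 genes (41.8%), beside 25.8% of all symbols. In 36 of the 67 genes WT 3 was above the *Cmah*-null mean, a count that was not taken over all symbols. *Cmah*-null 3 differed from the other *Cmah*-null arrays by 0.5 or more in 12 of the 22 genes detected on all arrays. It was lower in 9 of them (40.9%), beside 23.2% of the 9907 symbols detected on all arrays, and higher in 3 (13.6%), beside 25.9%. The 3 higher genes were *Krt10*, *Lor* and *Sprr1a*. *Krt16*, *Krtdap* and *Krt6b* had the widest steps down, at -2.27, -1.79 and -1.61.

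The differences were also read within the sets of arrays split by bead number, and an effect of bead number itself was not tested. Within the arrays of fewer beads, WT 1 and *Cmah*-null 1 and 2, the *Cmah*-null mean was above WT in 55 of the 67 genes. Within those of more beads, WT 2, WT 3 and *Cmah*-null 3, it was above WT in 29 genes, and the sign was opposite between the sets in 33 genes. These counts were not taken over all symbols, so they cannot be read as a trait of these genes. WT 1 was the lowest WT array in 64.2% of the 67 genes, beside 41.7% of all symbols. *Krt71* differed by 1.09 and 1.35 in log2 within these sets, *Krt73* by 0.79 and 1.15, and *Sprr1a* by 2.35 and 1.77. Each set has 1 array in one of its groups, so these values have no replicate spread. *Sprr1b* differed by 2.38 and 0.32, *Krt16* by 3.89 and -0.31, *Krt14* by 1.97 and -0.06, and *Krtdap* by 2.11 and -1.33. *Krt10* differed by 1.99 and 1.27 and *Lor* by 1.44 and 0.91.

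**Figure D3:**
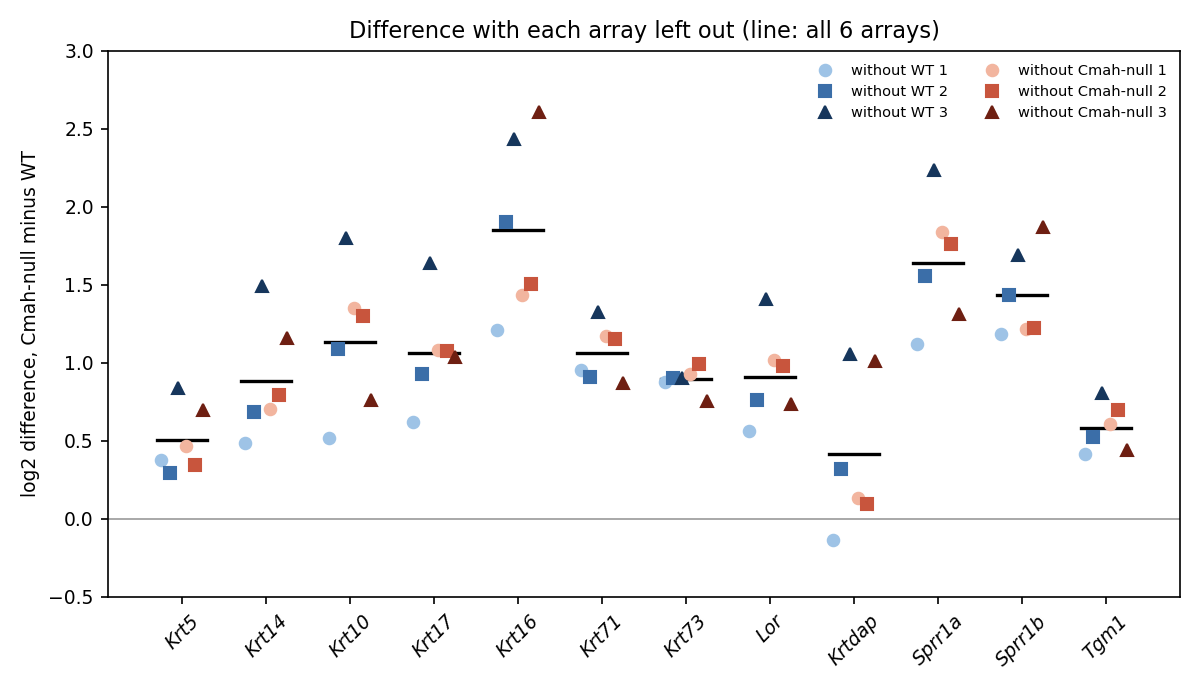
Log2 difference (vertical axis, *Cmah*-null minus WT) of 12 genes with all 6 arrays (black line) and with each array left out in turn (points). *Krt73* stays between 0.76 and 0.99, *Krt16* ranges from 1.21 to 2.61, and *Krtdap* crosses 0 without WT 1.

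Leaving out single arrays moved most of these values. The number of genes that met the rule of fold and p on the higher side was 4 with all arrays. It was 16 without WT 3 (23.9%, beside 2.51% of all symbols in the same fit) and 9 without *Cmah*-null 3 (13.4%, beside 2.02%). It was 2, *Krt71* and *Krt73*, without WT 1 (2.99%, beside 1.74%) and without *Cmah*-null 1 (beside 1.81%). It was 3 without *Cmah*-null 2 (4.48%, beside 1.90%), where *Tgm1* joined *Krt71* and *Krt73*. Without WT 2 it was 4 (5.97%, beside 0.948%), where *Sprr1b* and *Sprr2d* joined them. The genes added without WT 3 included *Krt5*, *Krt14*, *Krt10*, *Krt17*, *Lor*, *Ivl* and *Tgm1*, and *Krt7*, *Krt16* and *Krt6b* were added both there and without *Cmah*-null 3. *Sprr2d*, *Sprr2e* and *Sprr2g* were added without *Cmah*-null 3. Among the fits with an array left out, *Sprr1a* met the rule only without WT 3. *Sprr1b* met it only without WT 2, WT 3 or *Cmah*-null 3. *Lor* ran from 0.56 without WT 1 to 1.41 without WT 3, *Krt17* from 0.62 to 1.64 and *Ivl* from 0.15 to 0.68. *Krt71* and *Krt73* met the rule with each array left out.

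Other genes of stratified epithelium and hair, from lists that hold none of the 67 genes, were read in the same fit. The lists were chosen with earlier results of these data known and read the same arrays. Their shares are therefore a description and not separate support. Of 36 genes of the barrier and of late differentiation, 32 had a log2 difference above 0 (88.9%, beside 53.1% of all symbols) and the median was 0.62. By the rule of fold and p, 3 were higher (8.33%, beside 1.61% of all symbols), *Aloxe3*, *Ppl* and *Lce3f*, and 0 were lower (beside 1.46%). By the fold of 1.5 alone, 19 were higher and 2 lower, beside 605 and 632 of all 18138 symbols. The 2 lower genes were *Elovl4* (-1.07) and *Fabp5* (-0.81). Leaving out 1 array gave from 1 (WT 1, WT 2, *Cmah*-null 1 or *Cmah*-null 2) to 21 (WT 3) higher. In the same fits 0.948% to 1.90% and 2.51% of all symbols were higher. On the lower side 1 gene met the rule without WT 1 (beside 1.89% of all symbols) and 0 with any other array left out. The median ran from 0.27 without WT 1 to 1.10 without WT 3. *Aloxe3*, a lipoxygenase of the epidermal lipid barrier, stood at 8.44, 8.07 and 8.70 in WT and at 9.60, 9.58 and 9.44 in *Cmah*-null mice, a log2 difference of 1.13 (standard error 0.17, adjusted p 0.365 in limma). Its 3 *Cmah*-null arrays were close together and WT 3 stayed below them. *Casp14*, the caspase of cornifying cells, was at 8.02, 8.65 and 10.26 in WT and at 10.25, 10.12 and 11.01 in *Cmah*-null mice, with a log2 difference of 1.48 (standard error 0.60, adjusted p 0.584), and it overlapped through WT 3. *Lce3f*, a late envelope gene, was high on *Cmah*-null 1 and 2, at 9.49 and 9.48, and lower on *Cmah*-null 3, at 8.31, the order of *Krt16* and *Sprr1b*.

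Of 15 genes of desmosomes, hemidesmosomes and anchoring, 12 were above 0 (80.0%, beside 53.1% of all symbols), with a median of 0.17. By the rule 2 were higher (13.3%, beside 1.61%), the desmosomal plaque genes *Dsp* and *Pkp1*. *Dsp* had log2 signals of 9.24, 9.45 and 10.68 in WT and of 10.77, 10.77 and 11.54 in *Cmah*-null mice, a log2 difference of 1.24 (standard error 0.43, adjusted p 0.551 in limma). The 2 calls became 0 without WT 1, WT 2 or *Cmah*-null 3 and 5 without WT 3 (beside 2.51% of all symbols), and the median ran from 0.10 to 0.33. All 15 regulators of epidermal fate that were matched were above 0 (beside 53.1% of all symbols), with a median of 0.64. By the rule 4 were higher (26.7%, beside 1.61%), while 3 of the 15, *Grhl3*, *Barx2* and *Hopx*, were detected on no array. The 4 higher regulators were *Trp63*, the transcription factor that sets up stratified epithelium, *Klf5*, *Ovol1* and *Sfn*. *Trp63* stood at 9.04, 9.59 and 10.70 in WT and at 10.93, 10.74 and 10.90 in *Cmah*-null mice, with a log2 difference of 1.08 (standard error 0.41, adjusted p 0.571 in limma). The 4 calls became 0 without WT 1 or WT 2 and 8 without WT 3 (beside 2.51% of all symbols). The median ran from 0.34 without WT 1 to 0.89 without WT 3. Of 31 hair follicle genes, mostly keratin-associated proteins of the shaft, 16 were above 0 (51.6%, beside 53.1% of all symbols). The median was 0.00, and 23 were detected on no array. *Padi1* alone was higher by the rule (3.23%, beside 1.61% of all symbols), and it was not called without WT 1, WT 2, *Cmah*-null 1 or *Cmah*-null 3.

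**Figure D4:**
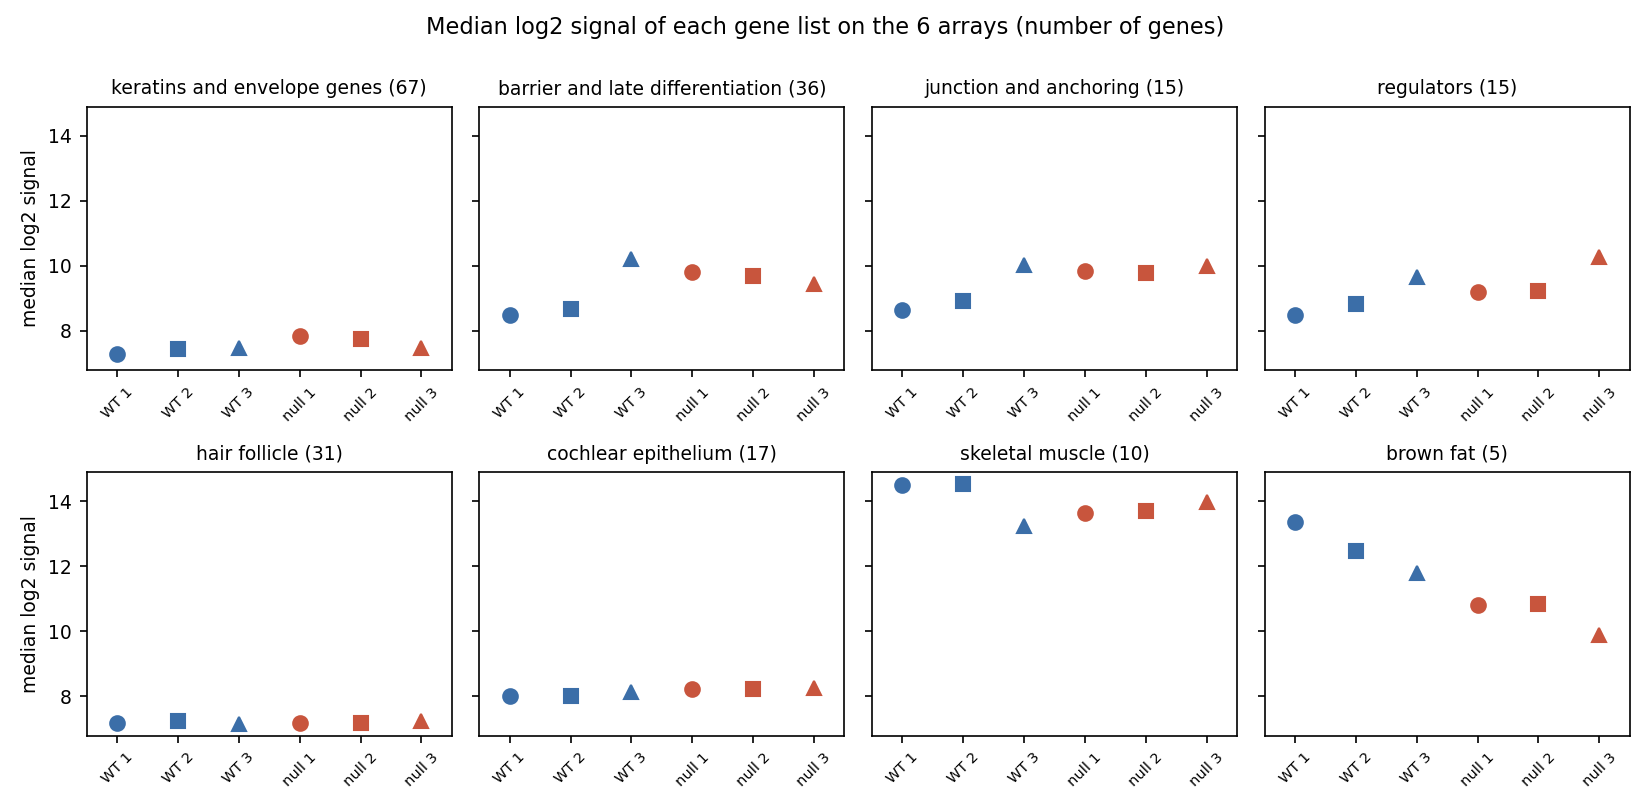
Median log2 signal (vertical axis) of the 67 keratins and envelope genes and of 7 other gene lists on each of the 6 arrays, WT in blue and *Cmah*-null in red. For barrier genes, junction genes and regulators WT 3 lies near the *Cmah*-null arrays and above WT 1 and WT 2, for skeletal muscle WT 3 is the lowest array, and for brown fat the 3 *Cmah*-null arrays lie below the WT arrays.

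Markers of other cell types were read on the same arrays. The median log2 signal of 10 skeletal muscle genes was 14.50, 14.53 and 13.24 for WT and 13.65, 13.69 and 13.98 for *Cmah*-null mice, so that WT 3, where many keratins were highest, had the least muscle signal of the WT arrays. The median of 5 brown fat genes was between 11.79 and 13.35 in WT and between 9.90 and 10.84 in *Cmah*-null mice. All 10 muscle genes and 3 of the 5 brown fat genes were detected on all arrays. Their part in the differences of keratins was not tested, and in bulk tissue fewer cells of a type and less RNA per cell cannot be told apart. Of 17 genes of the cochlear epithelium, 9 were detected on all arrays, *Fbxo2*, *Gjb2*, *Gjb6* and *Coch* among them, and the median log2 difference was 0.09 with 0 called by the rule. Of the hair cell genes, *Slc26a5*, *Pou4f3* and *Strc* were detected on no array and *Myo7a* on all arrays, at 8.13 to 8.39 in WT and 8.22 to 8.44 in *Cmah*-null mice. The medians of this list ranged from 8.02 to 8.13 in WT and from 8.22 to 8.25 in *Cmah*-null mice. Of 9 genes of middle ear and airway mucosa, 7 were detected on all arrays and the median log2 difference was 0.03. Of 4 sebaceous gland genes 3 were detected on no array. The Langerhans cell gene *Cd207*, of a resident immune cell of epidermis, was detected on no WT array, at 7.18, 7.18 and 7.40, and on all *Cmah*-null arrays, at 7.68, 7.65 and 7.58. Of the melanocyte genes, *Tyrp1* was detected on all WT arrays, at 7.68, 7.68 and 7.56, and on no *Cmah*-null array, at 7.13, 7.06 and 7.19. These values are near the detection limit, and the measured log2 difference was -0.52 (standard error 0.08, adjusted p 0.365 in limma). *Tyr* was detected on no array, and *Mlana* on all WT and 2 *Cmah*-null arrays with a log2 difference of -0.06 (standard error 0.31). *Dct* ranged from 8.56 to 10.62 in WT and from 7.57 to 9.71 in *Cmah*-null mice.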

How the data were processed

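One deposited table holds intensity on a linear scale, averaged over the beads of a probe, beside bead numbers. It also holds the deposited detection p-value of each probe. The log2 values of the other deposited table had been quantile normalized by the authors. They equalled quantile-normalized log2 raw signals to within 5e-07. That table also holds the authors' fold change, a local pooled error statistic and its adjusted p, which were not used, and 18 columns of per-sample values that repeat or add to these were not used. For the comparison of 3 *Cmah*-null with 3 WT arrays, log2 values went into lmFit and eBayes of limma 3.58.1 (R 4.3.3) without covariates. Tests were two-sided, and p-values of the 25697 probes were adjusted by the Benjamini-Hochberg method. The script was tested on simulated arrays. Counts are by symbol, with the brightest probe of each. At least N-fold means the mean of the brighter group against the higher, per array, of the lowest detected signal and the signal of the dim probe. The number of arrays limits the precision.

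The genes, classes and lists were chosen with earlier results of these data known. Genes given with all values were a set of class representatives, those that met the rule of 1.5-fold and p, and the largest difference of each class among genes detected on all 3 arrays of a group. Others, such as *Krt6b*, *Krt27*, *Krt77* to *Krt79*, *Sprr2a*, *Sprr2d* and the genes of other lists, were named after their values were seen. *Evpl*, *Spink5*, *Dsg3*, *Msx2*, *Tchh*, *Gprc5d*, *Otog* and 5 marker genes were not matched by symbol. The alternatives were neqc normalization (offset 16), median scaling, a filter on detection on at least 3 arrays, a replicate block, each array left out, an eBayes prior with trend and robust, a bead number block, *Cmah*-null replicates 1 and 2 averaged, and the mean of all probes of a symbol. Shares of all symbols called in each setting and differences within the arrays of fewer and of more beads were added later. Plots used Python 3.11.15 and matplotlib 3.10.9.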

Additional observations from a re-analysis of the deposited data

How the results depend on the processing

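No gene of the 67 passed an adjusted p of 0.05 under the 14 alternatives. The number higher at 1.5-fold with an unadjusted p was 4 (5.97%, beside 1.61% of all symbols). It became 2 with *Cmah*-null replicates 1 and 2 averaged (2.99%, beside 1.78%) and 9 with the bead number block (13.4%, beside 4.17%). It was 16 with median scaling (23.9%, beside 11.8%), 8 with neqc (11.9%, beside 3.53%) and 9 with the prior with trend and robust (13.4%, beside 1.81%). The filter on detection gave 5 of 34 genes (14.7%, beside 2.69%), and leaving out an array gave 2 to 16. Of those 5, *Krt73* passed the filter through its 3 *Cmah*-null arrays alone, and *Krt71* was detected on 1 WT and 3 *Cmah*-null arrays. The filter thus favours genes that are high in *Cmah*-null mice, and its share is not read as a gain over the main fit. With the replicate block the number was 6 (8.96%, beside 1.96%), of which 3 were among the 4. But same-numbered arrays did not deviate together (correlations of 0.022, -0.170 and 0.013 over 12410 probes), so the numbers do not pair the samples. The number lower was 0, and 0 to 1 with an array left out, the 1 being *Sprr2a* without WT 1. Median scaling moved the median of symbols detected on all arrays from 0.04 to 0.34, and the differences under it are to be read against that shift. Genes whose groups did not overlap, 10 higher and 1 lower, became 6 and 0 with the filter on detection (beside 11.6% and 7.40% of symbols), and 10 to 30 higher and 1 to 5 lower with an array left out. Groups of 3 and 2 arrays overlap less often by design. The 30 without WT 3 were 44.8% beside 17.1% of all symbols, the 21 without *Cmah*-null 3 31.3% beside 19.6%, and the 5 lower without WT 1 7.46% beside 13.9%. The median log2 difference of simple keratins was 0.40 with median scaling. That of hair keratins was -0.012 with median scaling and 0.182 with neqc. With the filter on detection it was 0.88, over the 4 of 18 genes that passed (*Krt27*, *Krt71*, *Krt73* and *Krt32*), each detected on more *Cmah*-null than WT arrays, so that the filter itself sets this value. That of other keratins was 0.44 with neqc, that of envelope and desmosome genes 0.58 with the filter, and that of basal keratins 0.294 to 0.842 with an array left out. For the hair follicle list it was 0.26 with the filter, -0.09 with median scaling and -0.008 to 0.043 with an array left out. Of the 23 genes given with all values, 15 kept their sign. The sign changed for *Krt8* with median scaling (0.399), for *Krt18* and *Krt19* with averaging (-0.133 and -0.026) and with the bead block (-0.074 and -0.013), and for *Dsc1* with median scaling (-0.021). With an array left out, the log2 difference of *Krt8* ran from -0.269 to 0.156, *Krt18* from -0.136 to 0.354, *Krt19* from -0.041 to 0.239, *Krt15* from -0.008 to 0.360, *Krt1* from -0.105 to 0.147, *Krtdap* from -0.134 to 1.057, *Dsg1a* from -0.042 to 0.033 and *Dsc1* from -0.081 to 0.127. The cause of these changes was not tested.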
